A study of Arabidopsis thaliana with 30 samples.

Results

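The genes described here are 52 of the 37686 genes in the deposited tables of a study of root regeneration from detached Arabidopsis thaliana leaves. They were far more abundant beside the wound than at detachment at each time examined, whether or not auxin transport was inhibited. They were chosen by measured levels, as means of the 2 libraries per time in TPM, a length-scaled share of all transcripts in a library. At all 7 times after detachment, in both media, the mean plus 1 TPM had to be at least 6 times the higher of the 2 libraries at detachment plus 1. In addition, the ratio of the medium with inhibitor to the medium without it, again with 1 TPM added, had to lie between 0.5 and 2 at all 7 times. The fold over detachment was met by 79 genes in both media, and 27 of these fell outside the ratio limits.

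All plants were wild type Col-0, germinated and raised for 12 d at 22 °C on MS medium with sucrose in a cycle of 16 h light and 8 h dark. Blades of the first leaf pair were cut from their petioles and laid on B5 medium without sucrose in constant light. One group of blades received N-1-naphthylphthalamic acid (NPA), an inhibitor of polar auxin transport whose dose the labels do not state. The other, called mock, received medium alone. The wounded end of the blades was harvested at detachment (T0) and, in each medium, at 7 times: 6 h, 12 h, 24 h and each day from 2 d to 5 d, with 2 libraries per group and 30 in all. The labels do not say whether the libraries of a group came from separate plants, so p-values measure only the spread between these libraries, which may be technical.

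A cut leaf blade is wounded and cut off from the plant at once, so it keeps the sugar it makes and loses the supply of ions from the root. Plants answer wounds and microbes with receptor kinases, extracellular proteins, glutathione transferases that join reactive compounds to glutathione, and jasmonate. Surplus sugar in leaves is known to favour starch synthesis and anthocyanins, the red flavonoid pigments made by enzymes under the control of a complex of MYB and bHLH transcription factors. Members of all these classes stood among the 52 genes. No sugar or ion was measured, and no cause of their levels was tested. The medium and the light regime changed at detachment too, so these changes cannot be told apart from detachment itself.

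The libraries differed in depth to an unknown extent, because TPM values hold no counts. Between 17201 and 19288 genes reached 1 TPM in a library, and 0 of 435 pairs of libraries were identical. Across genes, log2(TPM + 1) of the 2 libraries of a detached group correlated with r between 0.964 and 0.988, and the T0 pair stood apart with 0.888. The clock gene LHY was at 447 TPM in T0 replicate 1 and 0.17 TPM in T0 replicate 2. With only T0 replicate 2 as the baseline the rule took 80 genes, and with only T0 replicate 1 it took 120. Both sets held all 52 by construction, since the rule takes the higher of the 2 T0 libraries. The 9 leaf mesophyll markers, which mark the photosynthetic cells of the blade, summed to between 45105 and 80141 TPM in NPA libraries and between 37947 and 74282 TPM in mock libraries, against 71798 and 92629 TPM in T0 libraries. In all 30 libraries the tissue was therefore rich in leaf transcripts, while the 6 root hair markers summed to at most 3.57 TPM in any of them. The 7 xylem markers summed to between 9.77 and 146 TPM in NPA libraries and between 41.3 and 171 TPM in mock libraries, against 157 and 169 TPM in T0 libraries. The median of these sums lay below both T0 values in each medium, at 22.0 TPM in NPA and 106 TPM in mock. Their part in the results was not tested.

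Since the contrast with T0 and the contrast between media chose the genes, both are given as description only. At T0, 31 of the 52 genes were below 1 TPM in both libraries and 5 were listed at 0 in both. The highest T0 value of any of them was 20.1 TPM, for the CCT motif gene AT5G53420, and 37 were higher in T0 replicate 2 against 10 in replicate 1. The lowest value in any detached library was 2.56 TPM, for IMS2 in mock at 6 h. In NPA the median fold over the higher T0 library was 26.8 at 6 h, 25.9 at 12 h, 33.3 at 24 h, 42.2 at 2 d, 27.8 at 3 d, 40.9 at 4 d and 37.1 at 5 d, computed with 1 TPM added. In mock the same median was 26.4, 34.7, 40.0, 44.5, 29.5, 40.8 and 44.4 at those times. The medians thus lay lower at 3 d than at 2 d and 4 d in both media. In bulk tissue, fewer cells of a type and less RNA per cell cannot be told apart.

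The median ratio of NPA to mock over the 52 genes was 1.08 at 6 h, 0.968 at 12 h, 0.961 at 24 h, 1.01 at 2 d, 1.00 at 3 d, 0.950 at 4 d and 0.882 at 5 d. Just inside the ratio limits stood TH8, an h-type thioredoxin, at 0.501, SULTR1;2, a sulfate uptake carrier, at 1.97, and LHT1, an amino acid uptake carrier, at 0.514. Just outside stood AT2G39518 at 2.02, AT3G15650 at 0.477 and CORI3 at 2.1. Just inside the fold limit stood WR3 with a smallest fold of 6.04, AOC1 with 6.37 and the tetratricopeptide repeat gene AT2G29670 with 6.41. Just outside it stood MIOX1 with 5.96, KAT3 with 5.94 and CML41 with 5.62. The limits therefore pass through a continuous range of values.

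**Figure D1:**
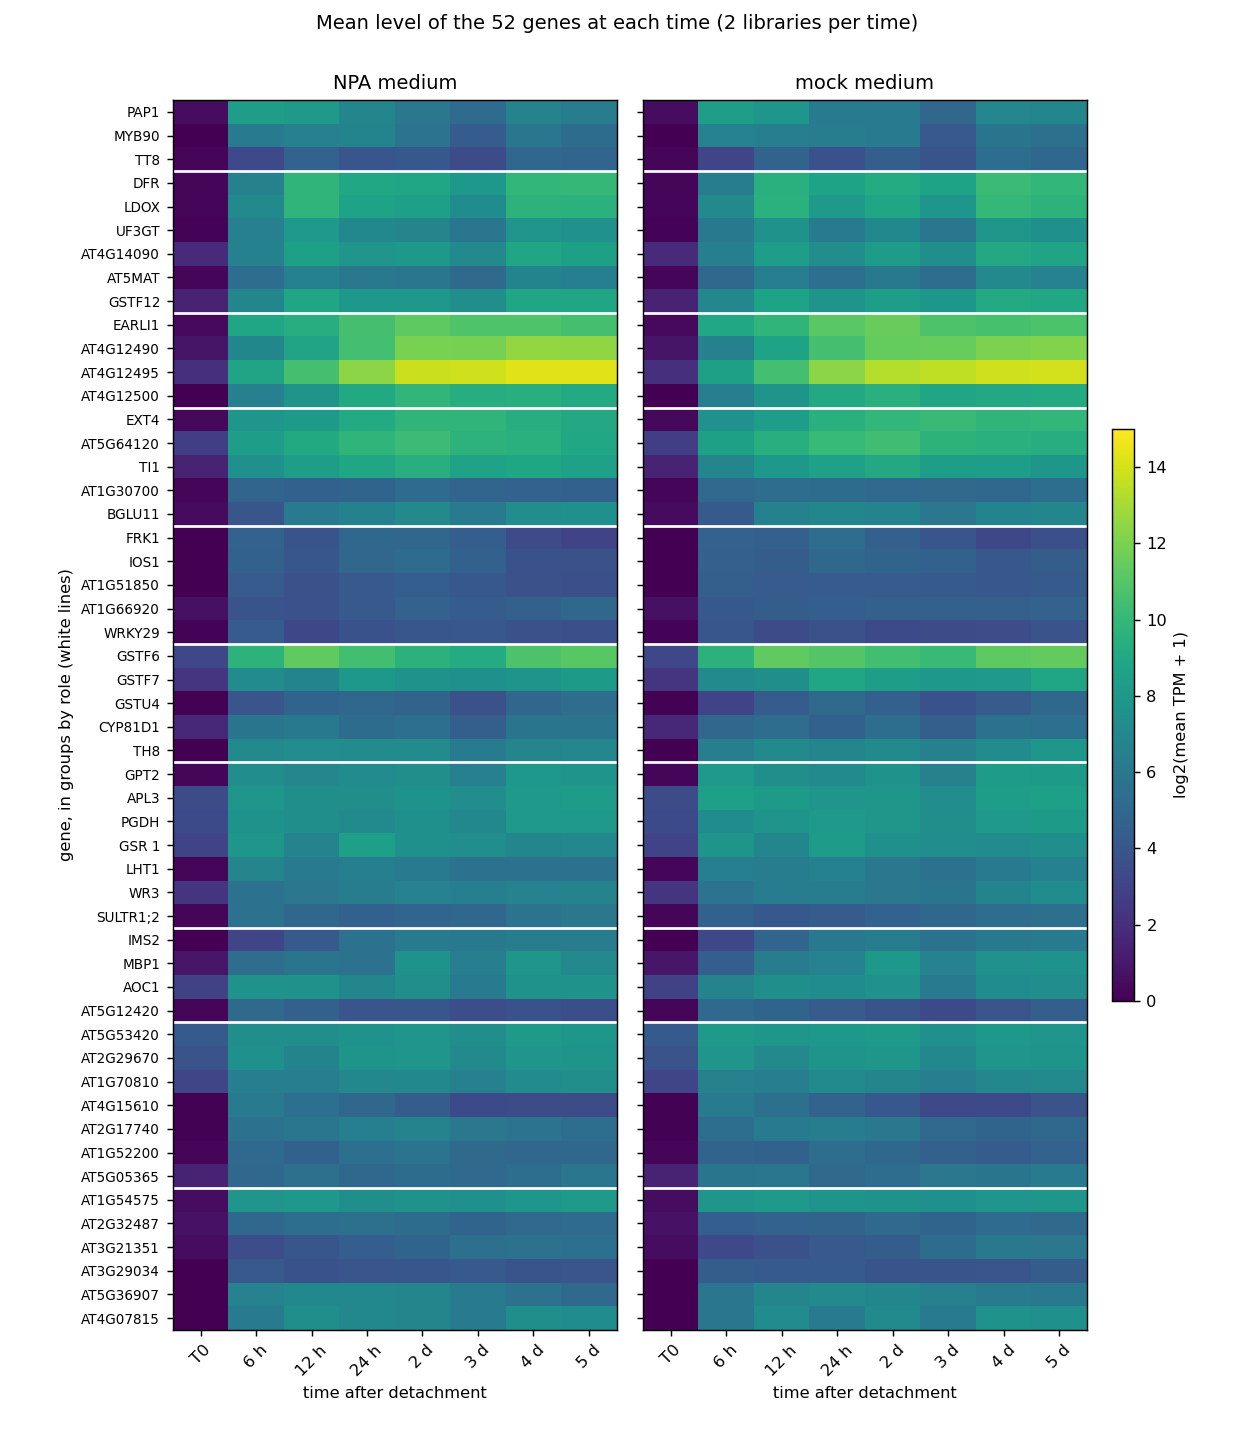
Mean level of each of the 52 genes as log2(mean TPM + 1), colour scale at the right, at T0 and 7 times (columns) in NPA (left panel) and mock (right panel), with genes in groups by role between white lines. The T0 column is the same in both panels and is dark in every row, and the EARLI1 cluster in the third block holds the brightest cells.

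The rule holds no contrast between detached times, so the course among detached libraries was tested. The rule still limits that course, since every detached mean had to reach at least 6 times the higher T0 library. Genes that fell back near T0 are thus left out, and the course in NPA is held near that in mock. The balance of higher to lower calls is therefore not free of the selection. The comparisons were 4, 24 h against 6 h and 5 d against 24 h in each medium, with limma on log2(TPM + 1) in 1 fit of all 30 libraries. Calls were made below an adjusted p of 0.05, taken over 20654 genes. In NPA, 11 of the 52 genes were higher and 2 lower at 24 h than at 6 h, while 5.17% and 6.64% of all tested genes were called higher and lower. In mock the corresponding counts were 15 higher and 3 lower, against 10% and 8.01% of all tested genes. The median log2 fold change of the 52 genes was 0.36 in NPA and 0.56 in mock, and that of all tested genes was -0.03 and 0.02. The 11 genes called higher in NPA were all among the 15 of mock, and the 2 called lower were among the 3. The ratio limits favour such shared calls, here and at 5 d against 24 h. Shared calls were not counted over all tested genes, so they are given as description only.

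For 5 d against 24 h the counts were small and pointed both ways. In NPA 6 genes were higher and 7 lower, against 9.98% and 6.37% of tested genes. In mock 4 were higher and 4 lower, against 13.7% and 4.61% of tested genes. Called in both media were 3 higher and 4 lower, and 0 were called by limma in opposite directions in the 2 media, nor were any by unadjusted p under 0.05. The direction of the log2 fold change was the same in both media for 44 of 52 genes in the early comparison and 38 of 52 in the late one, a likeness that the ratio limits favour. With the spread taken from the 4 compared libraries alone, limma called 0 genes higher and 0 lower in NPA at 24 h against 6 h (15 and 3 by unadjusted p under 0.05), and 0 and 0 at 5 d against 24 h (10 and 7). In mock it called 1 higher and 0 lower at 24 h (18 and 4), and 2 higher and 4 lower at 5 d (15 and 7), so most calls rest on the spread shared over all groups. Counts moved with single libraries. For NPA at 24 h against 6 h, the 11 higher genes became 7 without NPA 6 h replicate 1 or NPA 24 h replicate 2, and the 2 lower genes became 5 without NPA 24 h replicate 1 and 1 without NPA 24 h replicate 2. In NPA at 5 d, the 6 higher genes became 3 without NPA 5 d replicate 1 and 2 without NPA 5 d replicate 2, and the 7 lower ones became 3 without NPA 24 h replicate 2 or NPA 5 d replicate 2. In mock at 5 d, the 4 higher genes became 2 without mock 24 h replicate 1 or mock 5 d replicate 1, and the 4 lower ones became 2 without mock 24 h replicate 1 or mock 5 d replicate 2.

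**Figure D2:**
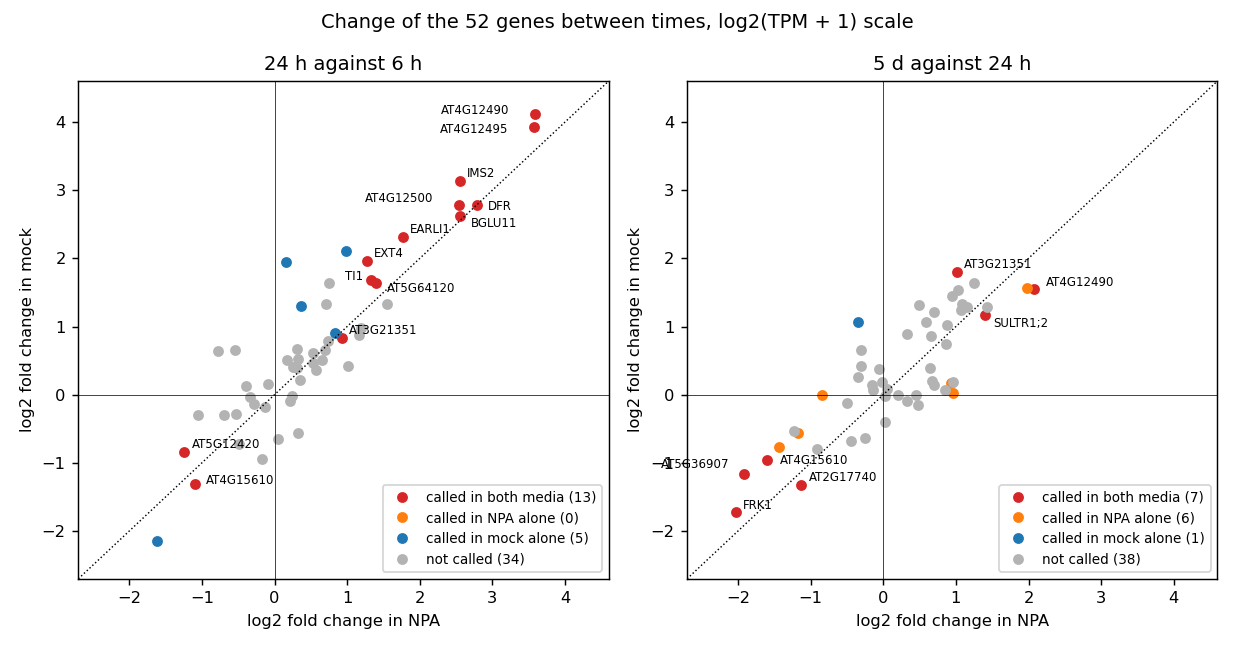
Log2 fold change of each of the 52 genes in NPA (x axis) and in mock (y axis) for 24 h against 6 h (left) and 5 d against 24 h (right), with the line of equal change dotted and colours for the media in which limma called the gene. In the left panel the EARLI1 cluster, IMS2, DFR and BGLU11 lie at the upper right, and in the right panel FRK1 lies lowest in both media. The difference between media was not tested.

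The 52 genes include 4 of a cluster on chromosome 4, mostly for small secreted proteins, and these 4 rose between 6 h and 24 h in both media. The 2 with the largest log2 fold changes of the 52 genes, AT4G12490 and AT4G12495, overlap each other and may not be separate signals. EARLI1 and its relatives AT4G12490 and AT4G12500 encode proline-rich proteins with a lipid-transfer-like domain, a family known from cold and from systemic immunity. In the TAIR10.1 annotation EARLI1 lies at chr4:7406065-7406994, AT4G12490 at chr4:7409621-7410406 and AT4G12500 at chr4:7413990-7414955, all on the minus strand. AT4G12495, a gene of 282 bases with no description, lies on the plus strand at chr4:7410116-7410397, wholly inside AT4G12490. The strand used in counting is not given in the sources used here, so reads of these overlapping genes cannot be told apart. Its level was between 3.42 and 4.26 times that of AT4G12490 in the 14 detached groups, so the levels of the pair moved together.

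AT4G12490 was at 1005 and 1899 TPM in NPA libraries at 24 h, against 98.1 and 133 TPM at 6 h. In mock it was at 1737 and 1342 TPM at 24 h, against 128 and 59.5 TPM at 6 h. The 24 h and 6 h libraries thus did not overlap in either medium, while the 2 media overlapped at each of these times. At T0 the gene was at 0 and 1.55 TPM. The log2 fold change at 24 h against 6 h was 3.58 ± 0.41 (SE, adjusted p = 3.61e-05) in NPA and 4.11 ± 0.41 (adjusted p = 9.22e-06) in mock. The gene went on rising to 7018 and 4803 TPM in NPA at 5 d, with a log2 fold change against 24 h of 2.07 ± 0.41 (adjusted p = 0.00219). In mock it stood at 5333 and 3716 TPM at 5 d, with 1.54 ± 0.41 (adjusted p = 0.0125), and that call was lost without mock 24 h replicate 2 (adjusted p = 0.0855) or mock 5 d replicate 1 (adjusted p = 0.113). Both late calls were lost with a pseudocount of 0.1, at adjusted p = 0.0755 in NPA and 0.188 in mock. Of the 52 genes it had the largest ratio of highest to lowest detached group mean, 64.0, with 5997 TPM in NPA at 4 d as its highest mean and 93.6 TPM in mock at 6 h as its lowest.

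EARLI1 itself was at 1137 and 1954 TPM in NPA at 24 h, against 304 and 626 TPM at 6 h. In mock it was at 2541 and 2005 TPM at 24 h, against 651 and 313 TPM at 6 h. The log2 fold changes were 1.77 ± 0.37 (adjusted p = 0.00506) in NPA and 2.32 ± 0.37 (adjusted p = 0.000547) in mock. The NPA call was lost without NPA 6 h replicate 1 (adjusted p = 0.0943) or NPA 24 h replicate 2 (adjusted p = 0.106), and with a pseudocount of 0.1 (adjusted p = 0.0612). EARLI1 had its highest mock mean at 2 d, 2921 TPM, and it stood at 1748 and 1311 TPM in NPA and 1861 and 1557 TPM in mock at 5 d. AT4G12500 was at 455 and 634 TPM in NPA at 24 h, against 77.8 and 108 TPM at 6 h, and its log2 fold changes were 2.54 ± 0.32 (adjusted p = 9.98e-05) in NPA and 2.78 ± 0.32 (adjusted p = 4.12e-05) in mock. In the list of 8 genes of the EARLI1 and AZI1 family, 5 passed the filter on low values and 3 were among the 52. Of the 5, 4 rose in each medium from 6 h to 24 h. AT4G12510 and AT4G12520 of the list were at 0 TPM in all detached libraries. AZI1, the member of the family best known from systemic immunity, met the fold over T0 but not the ratio limits, since its lowest NPA to mock ratio was 0.327.

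**Figure D3:**
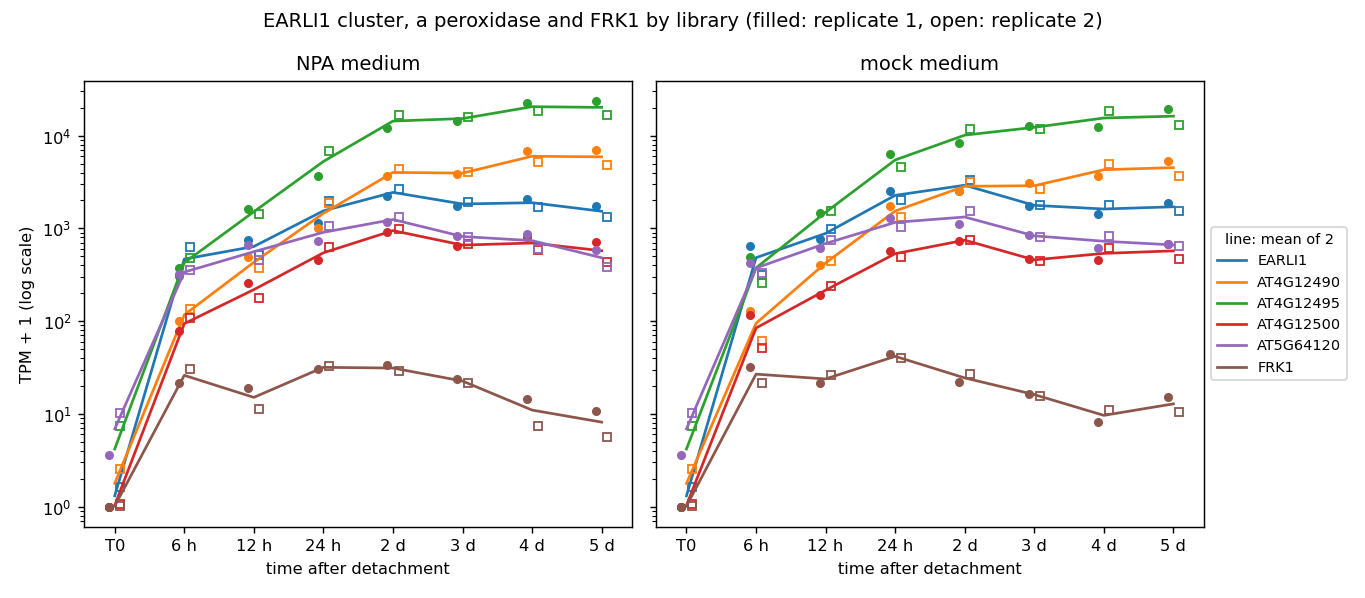
TPM + 1 (log scale) of the EARLI1 cluster, the peroxidase AT5G64120 and FRK1 in each library at T0 and 7 times, in NPA (left) and mock (right). Filled circles are replicate 1, open squares replicate 2, and lines join the means of the 2 libraries. AT4G12490 and AT4G12495 climb through 24 h, EARLI1 is highest at 2 d, and FRK1 is lower at 5 d than at 24 h.

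Of the 5 genes grouped here as wall and other extracellular proteins, 4 rose from 6 h to 24 h in each medium. For BGLU11, 1 of the 4, the description names a beta-glucosidase and gives no place in the cell. EXT4 encodes an extensin, a wall glycoprotein. It was at 479 and 654 TPM in NPA at 24 h, against 238 and 226 TPM at 6 h, and at 755 and 729 TPM in mock at 24 h, against 178 and 203 TPM at 6 h. Its log2 fold changes were 1.27 ± 0.20 (adjusted p = 0.000562) in NPA and 1.96 ± 0.20 (adjusted p = 1e-05) in mock. TI1, a trypsin inhibitor, rose by a log2 of 1.32 ± 0.25 in NPA and 1.68 ± 0.25 in mock (adjusted p = 0.00243 and 0.000299). AT5G64120, a secreted class III peroxidase also known as PRX71, rose by 1.40 ± 0.36 in NPA and 1.64 ± 0.36 in mock (adjusted p = 0.0174 and 0.00507). The AT5G64120 calls were lost when single libraries were left out, with an adjusted p of up to 0.200 in NPA and 0.0657 in mock.

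BGLU11, a beta-glucosidase, also separated the times. It was at 122 and 70.8 TPM in NPA at 24 h, against 14.3 and 15.7 TPM at 6 h. In mock it was at 88.3 and 144 TPM at 24 h, against 15.1 and 20.4 TPM at 6 h. The log2 fold changes of 2.56 ± 0.29 in NPA (adjusted p = 3.61e-05) and 2.61 ± 0.29 in mock (adjusted p = 2.75e-05) held without each library in turn. A further rise in NPA at 5 d against 24 h, 0.96 ± 0.29 (adjusted p = 0.0303), was lost without any of 3 of the 4 libraries, with an adjusted p of up to 0.311. The remaining gene of the group, the berberine-bridge-type oxidase AT1G30700, kept between 24.6 and 42.0 TPM in all 14 detached group means.

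IMS2, also known as MAM3, encodes an enzyme that lengthens the side chain of methionine-derived glucosinolates, the mustard oil precursors of the leaf. It was at 39.3 and 57.9 TPM in NPA at 24 h, against 4.70 and 11.1 TPM at 6 h. In mock it was at 70.3 and 60.0 TPM at 24 h, against 14.8 and 2.56 TPM at 6 h. The 24 h and 6 h libraries did not overlap in either medium. The log2 fold changes were 2.55 ± 0.55 (adjusted p = 0.00678) in NPA and 3.14 ± 0.55 (adjusted p = 0.00123) in mock. The NPA call was lost without NPA 6 h replicate 1 (adjusted p = 0.0963) or NPA 24 h replicate 2 (adjusted p = 0.0932). MBP1, a protein that binds the enzyme that cleaves glucosinolates, was called higher in mock with a log2 fold change of 1.94 ± 0.65 (adjusted p = 0.0453), and that call was lost without any of 3 of the 4 libraries, with an adjusted p of up to 0.350, without a filter on low values (adjusted p = 0.0639) and with a pseudocount of 5 (adjusted p = 0.0517). In NPA MBP1 had a log2 fold change of 0.16 ± 0.65 (adjusted p = 0.914).

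Of the 52 genes, 9 belong to the anthocyanin pathway. DFR and LDOX carry out successive late steps of pigment synthesis, UF3GT and AT4G14090, a UDP-glycosyltransferase, add sugars, AT5MAT adds an acyl group, and GSTF12, also known as TT19, carries the pigment to the vacuole. PAP1 and MYB90 are MYB activators of these genes, close relatives of each other, and TT8 is their bHLH partner. The 6 enzyme and carrier genes were 6 of the 14 on the list of flavonoid enzymes, and the 3 regulators were 3 of the 16 on the list of regulators. TT4, the chalcone synthase at the start of the pathway, was already at 409 TPM in T0 replicate 1 but at 7.29 TPM in T0 replicate 2, and it did not meet the rule.

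LDOX was at 244 and 47.7 TPM in NPA at 6 h and at 47.1 and 220 TPM in mock at 6 h, against 0.13 and 0.24 TPM at T0. At 12 h it stood at 717 and 1097 TPM in NPA and at 841 and 658 TPM in mock. At 24 h it was at 673 and 151 TPM in NPA and at 172 and 388 TPM in mock, and at 5 d at 627 and 922 TPM in NPA and 632 and 1021 TPM in mock. The libraries at 24 h and at 6 h overlapped in both media. The log2 fold change at 24 h against 6 h was 1.55 ± 0.98 in NPA (adjusted p = 0.320) and 1.33 ± 0.98 in mock (adjusted p = 0.370).

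DFR was the 1 pathway gene among the 52 called higher at 24 h than at 6 h. It was at 796 and 242 TPM in NPA at 24 h, against 156 and 24.6 TPM at 6 h, and at 317 and 503 TPM in mock at 24 h, against 25.1 and 129 TPM at 6 h. The log2 fold changes were 2.79 ± 0.85 in NPA (adjusted p = 0.0402) and 2.78 ± 0.85 in mock (adjusted p = 0.0301). Neither call held without each of the libraries: 3 of 4 omissions ended it in each medium, with an adjusted p of up to 0.344 in NPA and 0.272 in mock. The NPA call was also lost with a pseudocount of 0.1 (adjusted p = 0.055) and without a filter on low values (adjusted p = 0.0565). GSTF12 overlaps its neighbour PSY by 108 bases and AT4G14090 overlaps AT4G14100 by 230 bases, each on the other strand, so their levels may hold reads of those genes. None of the 9 genes was called at 5 d against 24 h by limma in either medium, and 0 had an unadjusted p under 0.05. The median log2 fold change of the 6 enzyme and carrier genes was 1.05 in NPA and 1.37 in mock for that comparison. Over the whole list of 14 flavonoid enzymes, 2 were higher and 0 lower at 24 h than at 6 h in each medium (by unadjusted p under 0.05, 3 higher and 0 lower in each).

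PAP1 had its highest group mean at 6 h in both media. At 12 h it was at 214 and 345 TPM in NPA and at 247 and 215 TPM in mock, so the 6 h and 12 h libraries overlapped. It was at 179 and 53.5 TPM in NPA at 24 h, against 461 and 200 TPM at 6 h. Mock libraries were at 50.8 and 99.5 TPM at 24 h, against 239 and 423 TPM at 6 h, so 24 h and 6 h did not overlap in either medium. It fell by 2.15 ± 0.61 on the log2 scale between those times in mock (adjusted p = 0.0224), a call lost without mock 6 h replicate 2 (adjusted p = 0.190) or mock 24 h replicate 1 (adjusted p = 0.192). In NPA the log2 fold change was -1.62 ± 0.61 (adjusted p = 0.0941), and the media were not tested against each other. MYB90 had its highest group mean at 24 h in NPA, 107 TPM, and its lowest at 3 d in mock, 17.5 TPM, whereas TT8 ranged between 7.62 TPM in mock at 6 h and 41.1 TPM in mock at 4 d.

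**Figure D4:**
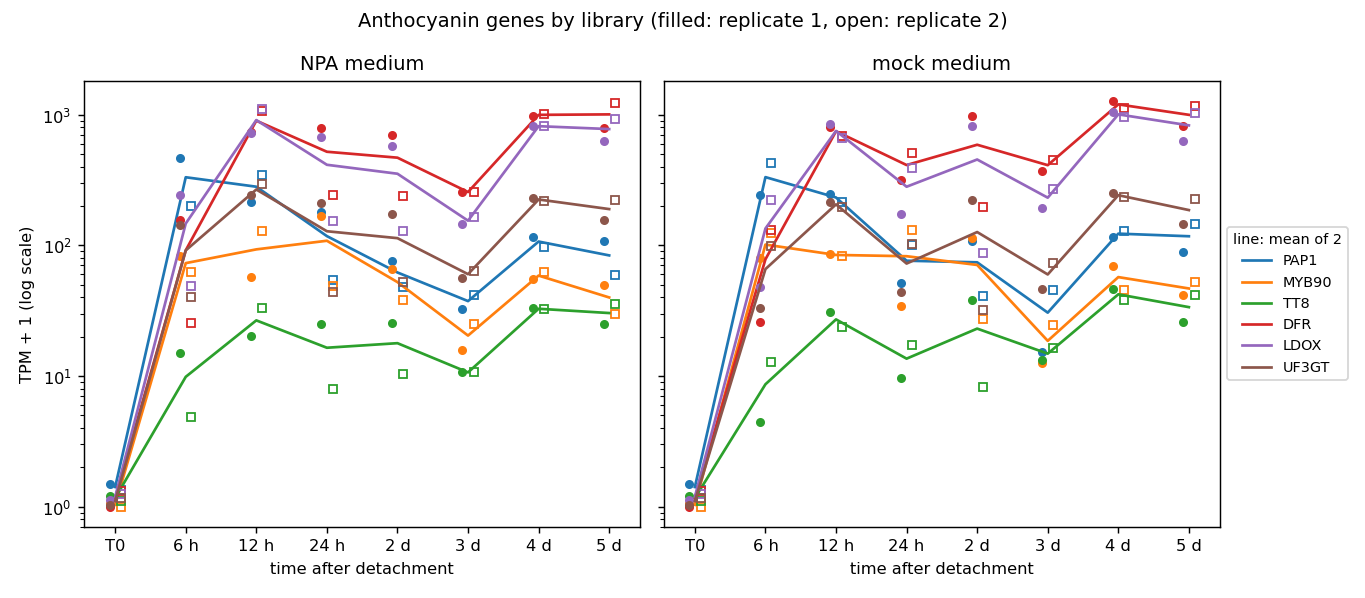
TPM + 1 (log scale) of 3 regulators (PAP1, MYB90, TT8) and 3 enzymes (DFR, LDOX, UF3GT) of the anthocyanin pathway in each library at T0 and 7 times, in NPA (left) and mock (right). Filled circles are replicate 1, open squares replicate 2, and lines join the means. The PAP1 mean is highest at 6 h in both media, though its 6 h and 12 h libraries overlap. For LDOX and UF3GT the 2 libraries of a group lie furthest apart at 6 h, 24 h and 2 d.

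The upstream sequences of DFR, UF3GT and MYB90 are shown because they hold the G-box CACGTG, a sequence that bHLH proteins such as TT8 can bind. They are the 250 bases before the annotated start in TAIR10.1, at chr5:17166033-17166282 (minus strand), chr5:21938397-21938646 (minus strand) and chr1:24763691-24763940 (plus strand), with each G-box in capitals.
DFR: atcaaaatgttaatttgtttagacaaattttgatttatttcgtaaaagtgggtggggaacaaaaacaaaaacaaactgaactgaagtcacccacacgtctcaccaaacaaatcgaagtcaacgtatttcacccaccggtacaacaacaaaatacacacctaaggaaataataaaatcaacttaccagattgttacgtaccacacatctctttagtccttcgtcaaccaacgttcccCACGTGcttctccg
UF3GT: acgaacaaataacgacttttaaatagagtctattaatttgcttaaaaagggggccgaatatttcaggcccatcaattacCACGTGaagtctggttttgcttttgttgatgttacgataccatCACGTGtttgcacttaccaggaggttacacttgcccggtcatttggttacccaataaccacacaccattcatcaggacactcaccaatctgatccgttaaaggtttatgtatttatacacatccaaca
MYB90: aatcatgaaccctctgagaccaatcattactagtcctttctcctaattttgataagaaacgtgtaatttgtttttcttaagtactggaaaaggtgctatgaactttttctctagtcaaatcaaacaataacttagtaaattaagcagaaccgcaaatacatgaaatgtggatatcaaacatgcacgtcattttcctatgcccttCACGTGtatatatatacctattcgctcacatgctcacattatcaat
The G-box reads the same on both strands. It begins 14 bases before the DFR start, 46 bases before the MYB90 start, and 171 and 128 bases before the UF3GT start. Of the 9 anthocyanin genes 3 held it in this window, of the 52 genes 5 did, and of all 27437 protein-coding genes 6.49% did. The W-box, TTGACC or TTGACT on either strand, was found upstream of 23 of the 52 genes and of 28.4% of all protein-coding genes. A match is a description of letters and not of binding.

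The 2 libraries of a detached group were not used apart by the rule, and their differences showed a shared pattern, chosen for description after the values were seen. LDOX replicate 1 minus replicate 2, on the log2(TPM + 1) scale, was 2.33 at 6 h, 2.14 at 24 h and 2.16 at 2 d in NPA, and -2.20, -1.17 and 3.23 at those times in mock. At 12 h it was -0.61 in NPA and 0.35 in mock, and from 3 d to 5 d it stayed between -0.56 and 0.01 in NPA and between -0.69 and 0.12 in mock. For LDOX the pairs at 6 h, 24 h and 2 d were thus less alike than those at 12 h and from 3 d on. The sign of its difference turned between media and times. All tested genes shared this order in part. Their median difference in size in NPA was between 0.17 and 0.22 up to 2 d, 0.10 at 3 d, 0.11 at 4 d and 0.18 at 5 d. In mock it was between 0.17 and 0.21 up to 2 d and between 0.09 and 0.13 from 3 d on. Unlike that of LDOX, it was largest in NPA at 12 h.

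Other anthocyanin genes followed LDOX in sign. UF3GT and TT8 had its sign in all 14 groups, DFR, GSTF12 and AT4G14090 in 13, PAP1 and MYB90 in 12 and AT5MAT in 11. Outside the pathway, GPT2, which imports glucose 6-phosphate into plastids, and the long non-coding RNA gene AT4G07815 had it in 13, and GSTF6 and PGDH in 12. In all, 11 of the other 51 genes had the sign of LDOX in at least 12 groups, against 2.75% of all tested genes. At the other end, 10 of the 51 had it in at most 2 groups, against 2.26% of all tested genes. These were AT1G52200 and AT5G64120 with 1 group each and, with 2 each, AT4G12490, AT4G12495, AT4G12500, FRK1, AT1G51850, AT2G17740, AT5G36907 and GSR 1. Where the pigment genes were higher in 1 of a pair, the EARLI1 cluster, the peroxidase and FRK1 were thus mostly lower in it. Within each of the 14 groups all genes are compared over the same 2 libraries, so no gene is independent of the others.

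The morning clock gene LHY also differed within pairs up to 2 d. For 6 h, 12 h, 24 h and 2 d in that order the difference was 3.68, -2.79, -1.71 and -2.35 in NPA and -3.40, 2.18, 1.87 and -2.86 in mock (replicate 1 minus replicate 2, log2 scale), and no more than 0.43 in size from 3 d on. It had the sign of LDOX in 9 of 14 groups. At 6 h and 12 h LHY differed in the direction of LDOX, though at 12 h the LDOX difference was small, and at 24 h and 2 d in the opposite direction. The part of this clock gene difference in the results was not tested.

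**Figure D5:**
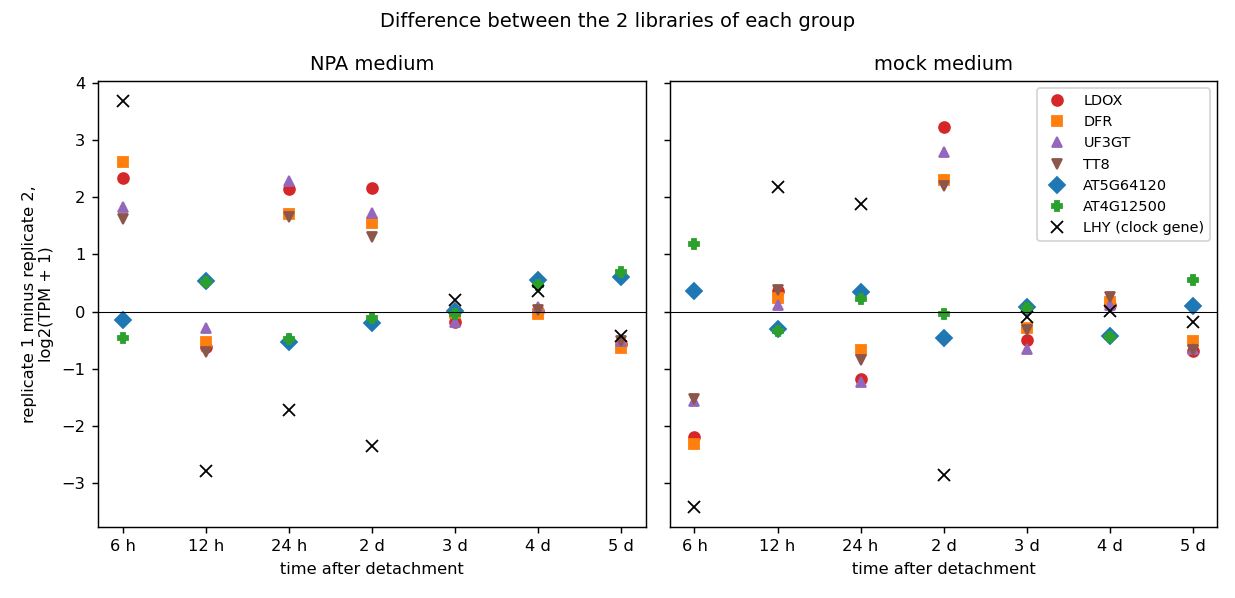
Replicate 1 minus replicate 2 on the log2(TPM + 1) scale at 7 times in NPA (left) and mock (right), for 4 anthocyanin genes, AT5G64120, AT4G12500 and the clock gene LHY. The anthocyanin genes lie together and swing between -2.32 and 3.23, most of all at 6 h, 24 h and 2 d, and AT5G64120 and AT4G12500 mostly lie on the other side of 0.

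AT4G07815 is annotated as a long non-coding RNA of 315 bases at chr4:13716419-13716733 on the minus strand, 1621 bases from ABCG9 and 1273 bases from CIP7. Neither T0 library listed a value above 0 for it. It was at 111 and 26.8 TPM in NPA at 6 h and 33.6 and 84.7 TPM in mock at 6 h, and at 154 and 160 TPM in NPA and 166 and 199 TPM in mock at 5 d. Its high and low libraries at 6 h were those of LDOX.

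Receptor kinases and a WRKY factor of the immune response were a group of low level. FRK1, a receptor-like kinase induced by bacterial flagellin, was at 9.60 and 4.67 TPM in NPA at 5 d, against 29.3 and 32.1 TPM at 24 h. Mock libraries were at 14.1 and 9.49 TPM at 5 d, against 42.9 and 38.5 TPM at 24 h. Both 5 d libraries thus lay below both 24 h libraries of the same medium, and the T0 libraries were at 0 and 0.02 TPM. It fell by 2.03 ± 0.33 in NPA (adjusted p = 0.000472) and by 1.73 ± 0.33 in mock (adjusted p = 0.00113) on the log2 scale at 5 d against 24 h, and both calls held without each library. FRK1 overlaps its neighbour AT2G19180 by 175 bases on the other strand, and the neighbour averaged 36.5 TPM in detached groups. IOS1, a leucine-rich repeat kinase of immunity, fell by 1.17 ± 0.32 in NPA (adjusted p = 0.0181), a call lost without NPA 24 h replicate 2 (adjusted p = 0.205) or NPA 5 d replicate 2 (adjusted p = 0.139). In mock its log2 fold change was -0.56 ± 0.32 (adjusted p = 0.256).

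The related kinase AT1G51850 stayed between 11.7 and 22.2 TPM in all 14 detached group means and was not called. The kinase gene AT1G66920 rose by 0.93 ± 0.21 in NPA at 5 d against 24 h (adjusted p = 0.00589), with 30.4 and 35.1 TPM at 5 d against 14.3 and 19.6 TPM at 24 h. That call was lost without NPA 24 h replicate 1 (adjusted p = 0.0889) or NPA 5 d replicate 2 (adjusted p = 0.0566), and with a pseudocount of 0.1 (adjusted p = 0.116). In mock AT1G66920 had a log2 fold change of 0.16 ± 0.21 (adjusted p = 0.649). WRKY29, a transcription factor of the flagellin response, ranged between 8.66 TPM in NPA at 12 h and 19.6 TPM in NPA at 6 h and was not called.

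Beside FRK1, AT5G36907, AT2G17740 and AT4G15610 fell at 5 d against 24 h in both media. AT5G36907, which has no description, was at 43.0 and 25.3 TPM in NPA at 5 d, against 135 and 119 TPM at 24 h, and was listed at 0 at T0. Mock libraries were at 70.3 and 58.3 TPM at 5 d, against 158 and 131 TPM at 24 h. Its log2 fold changes were -1.91 ± 0.27 (adjusted p = 0.000135) in NPA and -1.16 ± 0.27 (adjusted p = 0.00526) in mock, and the mock call was lost without mock 24 h replicate 1 (adjusted p = 0.064) or mock 5 d replicate 2 (adjusted p = 0.0669). AT2G17740, a cysteine- and histidine-rich C1 domain gene, fell by 1.13 ± 0.30 in NPA (adjusted p = 0.0153) and by 1.32 ± 0.30 in mock (adjusted p = 0.00443), with calls lost without single libraries at an adjusted p of up to 0.225 in NPA and 0.0908 in mock.

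AT4G15610, of an uncharacterized protein family, was highest at 6 h and fell at each step tested. It was at 75.5 and 66.5 TPM in NPA at 6 h, 35.3 and 30.3 TPM at 24 h and 11.8 and 8.61 TPM at 5 d. In mock it was at 63.8 and 73.1 TPM at 6 h, 25.4 and 28.5 TPM at 24 h and 12.9 and 13.8 TPM at 5 d. In NPA it fell by 1.09 ± 0.21 at 24 h against 6 h (adjusted p = 0.00274) and by 1.60 ± 0.21 at 5 d against 24 h (adjusted p = 5.97e-05). The early NPA call stood at an adjusted p of 0.0504 without NPA 24 h replicate 2. AT5G12420, related to wax ester synthases, also fell early, by 1.24 ± 0.15 in NPA (adjusted p = 8.05e-05) and by 0.84 ± 0.15 in mock (adjusted p = 0.00162). The undescribed gene AT3G21351 went the other way. In NPA it was at 8.63 and 12.8 TPM at 6 h, 20.4 and 21.4 TPM at 24 h and 49.3 and 38.1 TPM at 5 d. It was called higher in all 4 comparisons, with log2 fold changes of 0.93 ± 0.17 and 1.02 ± 0.17 in NPA and 0.83 ± 0.17 and 1.80 ± 0.17 in mock. Its early calls were lost without NPA 6 h replicate 1 (adjusted p = 0.0578) or mock 6 h replicate 2 (adjusted p = 0.0528).

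Glutathione transferases were led by GSTF6, linked to the synthesis of the defence compound camalexin, with a mean of 1668 TPM over the 28 detached libraries. It was at 2010 and 2342 TPM in NPA and 2602 and 2751 TPM in mock at 5 d, against 0.56 and 15.7 TPM at T0. Its neighbour GSTF7, 1107 bases away, is a close relative, so reads may have been split between them. GSTF7 was at 308 and 276 TPM in NPA and 502 and 393 TPM in mock at 5 d. GSTU4 rose in mock at 24 h against 6 h by a log2 of 2.1 ± 0.39 (adjusted p = 0.00159), with 23.5 and 48.4 TPM at 24 h against 5.44 and 9.20 TPM at 6 h. GSTU4 stood at 35.2 and 23.5 TPM in NPA at 24 h, against 18.7 and 10.7 TPM at 6 h, a log2 fold change of 0.98 ± 0.39 that was not called (adjusted p = 0.107). Of the 52 genes 4 were glutathione transferases, of which GSTF6 and GSTF12 stand on the lists of camalexin synthesis and of flavonoid enzymes instead of the family list. Of 22 tested glutathione transferases on the list, 3 were higher and 4 lower in NPA and 8 higher and 3 lower in mock at 24 h against 6 h. Of the 23 listed, 3 met the fold over T0 in both media, and 2 of these, GSTF7 and GSTU4, were among the 52.

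The redox protein TH8, listed at 0 in both T0 libraries, rose late in mock. It was at 255 and 234 TPM in mock at 5 d, against 112 and 121 TPM at 24 h, with a log2 fold change of 1.06 ± 0.25 (adjusted p = 0.00546), which stood at an adjusted p of 0.0512 without mock 24 h replicate 1. In NPA it was at 143 and 101 TPM at 5 d, against 144 and 162 TPM at 24 h. The cytochrome P450 gene CYP81D1 ranged between 21.9 TPM in mock at 3 d and 66.4 TPM in NPA at 12 h.

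Genes of sugar, amino acid and ion use were present from 6 h on. GPT2 was at 173 and 154 TPM in NPA and 252 and 272 TPM in mock at 6 h, against 0.14 and 0.24 TPM at T0. APL3, a subunit of the enzyme that makes ADP-glucose for starch, was at 209 and 245 TPM in NPA and 344 and 353 TPM in mock at 6 h, against 9.06 and 11.7 TPM at T0. Neither was called in any of the 4 comparisons, though the 24 h libraries of both lay below those of 6 h in mock. On the sugar and starch list, 0 of 15 were higher and 2 lower in NPA by limma at 24 h against 6 h (1 and 5 by unadjusted p under 0.05), and 1 was higher and 2 lower in mock.

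SULTR1;2 rose late in both media. It was at 61.8 and 61.6 TPM in NPA at 5 d, against 33.1 and 15.7 TPM at 24 h, and at 52.2 and 38.7 TPM in mock at 5 d, against 15.8 and 23.8 TPM at 24 h. The log2 fold changes were 1.40 ± 0.34 in NPA (adjusted p = 0.00956) and 1.17 ± 0.34 in mock (adjusted p = 0.0228), and both calls were lost when single libraries were left out, at an adjusted p of up to 0.158 in NPA and 0.212 in mock. LHT1 fell by 0.84 ± 0.25 on the log2 scale in NPA at 5 d against 24 h (adjusted p = 0.0272). In mock it was at 105 and 83.5 TPM at 5 d, against 96.2 and 91.2 TPM at 24 h, so the libraries overlapped. GSR 1, a cytosolic glutamine synthetase, fell by 1.43 ± 0.45 in NPA (adjusted p = 0.0372), and its log2 fold change in mock was -0.76 ± 0.45 (adjusted p = 0.269). Both NPA calls were lost whichever of the 4 libraries was left out. WR3, a partner protein of high-affinity nitrate transporters, was highest at 5 d in mock with 178 and 128 TPM, and PGDH, the first enzyme of serine synthesis from a glycolytic intermediate, ranged between 129 and 286 TPM in group means.

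AOC1, an allene oxide cyclase of jasmonate synthesis, was the 1 of 14 listed jasmonate synthesis genes among the 52. It was at 166 and 230 TPM in NPA and 134 and 73.9 TPM in mock at 6 h, against 2.60 and 10.7 TPM at T0. At 3 d it was at 92.4 and 59.0 TPM in NPA and 64.5 and 82.0 TPM in mock, below all libraries of 2 d and 4 d in the same medium. The same held in both media for BGLU11, MYB90, TH8, GSTU4, CYP81D1, AT1G70810 and AT2G29670. In NPA, 13 of the 52 genes had both 3 d libraries below all 4 libraries of 2 d and 4 d, against 10.6% of tested genes. In mock 15 did, against 10.8%, and 8 did in both media, against 4.82%. This dip was chosen for description after the values were seen.

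The genes also differed in how far their level ranged after detachment. The undescribed gene AT1G54575 had the smallest ratio of highest to lowest detached group mean, 1.58, with means between 177 and 280 TPM, against 0.54 and 0.33 TPM at T0. AT5G53420, with a CCT motif as in regulators of flowering and the clock, had a ratio of 1.58 and means between 168 and 266 TPM. The undescribed gene AT3G29034 had a ratio of 1.61 with means between 13.0 and 20.8 TPM and was listed at 0 in both T0 libraries. Wider ranges were found for other genes known only by locus. AT2G32487, also undescribed, had group means between 21.1 and 45.9 TPM, the heavy metal domain gene AT5G05365 between 30.8 and 72.5 TPM, the PLAC8 family gene AT1G52200 between 19.4 and 52.2 TPM, and AT1G70810, with a calcium-dependent lipid-binding domain, between 83.8 and 167 TPM. The largest ratios were those of AT4G12490 with 64.0, AT4G12495 with 55.0 and DFR with 15.5.

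In sum the 52 genes made up 38494 TPM ± 6334 in NPA and 35037 TPM ± 5290 in mock at 5 d (SD, n = 2 each), against 114 TPM ± 58.1 at T0. Without AT4G12495, whose short annotated length raises its TPM per read, the means were 18306 TPM in NPA and 18800 TPM in mock at 5 d, against 111 TPM at T0. Since TPM is a share, this rise lowers the shares of other genes in the same libraries.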

How the data were processed

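The deposited files hold TPM values in a table for each medium, mock (B5) and NPA, with the same T0 columns. Per the submitters' processing notes, Trim Galore 0.5.0, STAR 2.7.2b, RSEM 1.3.2 and genome build TAIR10 were used, while strandedness is not given in the sources used here. TPM holds no depth, so no counting interval can be given.

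Groups came from the sample titles. Genes at 1 TPM or more in at least 2 libraries were tested (20654, all 52 members among them by the way they were chosen). limma 3.58.1 in R 4.3.3 (lmFit, eBayes with trend) was run on log2(TPM + 1) of all 30 libraries with a mean per group, two-sided, with Benjamini-Hochberg adjustment (15 residual degrees of freedom, prior 2.33), and was tested on simulated data. The model had no term for replicate number. Names, coordinates and upstream sequences came from the RefSeq TAIR10.1 genome and annotation, which matched 37390 of 37686 loci. The members, gene lists and tests were chosen with earlier results of these data known. Named genes were the 10 most abundant, up to 3 rises and 3 falls per comparison, up to 4 per class or list, those next to the limits, all transcription factors, and the 3 steadiest and 3 most variable; others are named to complete counts and were chosen after their values were seen. Alternatives were other pseudocounts (0.1 and 5), filters, TMM factors, quantile normalization, no trend, the compared libraries alone, a replicate block, each library left out, and, chosen after seeing the data, a fit without T0. One upstream sequence is not reported here.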

Additional observations from a re-analysis of the deposited data

Results flagged for a closer look

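In 3 genes every library moved one way in NPA and every library the other way in mock, and this difference between media was not tested, since the ratio of the media helped to choose the genes. AOC1 had a log2 fold change of -0.78 in NPA and 0.64 in mock at 24 h against 6 h. TH8 had -0.34 in NPA and 1.06 in mock at 5 d against 24 h. AT5G12420 had -0.34 in NPA and 0.27 in mock at 5 d against 24 h.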

How the results depend on the processing

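The number of genes the rule takes was 86 with a fold of 4, 101 with a pseudocount of 0.1, 27 with a pseudocount of 5, 17 with the media within 1.5-fold, 80 without T0 replicate 1 and 120 without T0 replicate 2. It lay between 40 and 60 under the other settings, and between 42 and 120 over all single libraries left out. Estimating the spread from the 4 libraries compared alone, with 2 residual degrees of freedom, limma called 0 higher and 0 lower in NPA at 24 h against 6 h (15 and 3 by unadjusted p under 0.05) and 0 and 0 at 5 d against 24 h (10 and 7). In mock it called 1 higher and 0 lower at 24 h (18 and 4) and 2 higher and 4 lower at 5 d (15 and 7). With a pseudocount of 0.1, 3 genes were higher in NPA at 5 d against 24 h. Leaving out single libraries gave 7 to 10 higher and 1 to 5 lower in NPA at 24 h, 2 to 5 higher and 3 to 5 lower in NPA at 5 d, 10 to 13 higher and 2 to 3 lower in mock at 24 h, and 2 to 4 higher and 2 to 4 lower in mock at 5 d. Of the calls, 7 of 13, 5 of 13, 11 of 18 and 3 of 8 were kept without each library, in that order. A group left with 1 library was assumed to vary like the others. Of 728 refits of single called genes, 606 kept the call, 122 lost it and 0 changed direction. Without the T0 libraries all 52 calls were kept. The cause of these shifts was not tested.

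Same-numbered libraries did not deviate together: their differences correlated across genes with r of 0.042, 0.002, 0.017 and 0.127 in the same order. With a replicate block 51 of 52 calls were kept, and MBP1 was lost in mock at 24 h against 6 h (adjusted p = 0.0551). The depth of the libraries is unknown.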
